A study of Mus musculus with 14 samples.

Results

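The genes described here are 7 enzymes and regulators of glycogen synthesis and breakdown, Pygl, Pygb, Pygm, Gys1, Gbe1, Gyg and Ppp1r3c. They were chosen by name with earlier results of these data known, among them the lower Pygl signal in Tfr1-null neurons at 3 weeks. All 10 probe sets of the 7 genes were taken, of 34945 probe sets with 1 gene symbol that covered 18193 genes. Their differences between genotypes are therefore a description, and an adjusted p says where a gene stood in a fit across all genes, not that the set as a whole was tested.

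The values were log2 signals of 14 Affymetrix mouse arrays hybridized with ribosome-bound mRNA of dopaminergic neurons from the ventral midbrain. In RiboTag mice a tagged ribosomal protein lets the ribosomes of a chosen cell type be precipitated from a tissue lysate together with the mRNA on them. The Tfr1-null mice had lost Tfr1, the transferrin receptor through which cells take up iron (gene Tfrc), in dopaminergic neurons. The groups were Tfr1-null at 3 weeks of age (4 libraries), control at 3 weeks (3 libraries), Tfr1-null at 10 weeks (3 libraries) and control at 10 weeks (4 libraries). Control mice were heterozygotes at Tfr1. Both genotypes carried the RiboTag allele, and all mice were F2 animals of 129Sv and C57BL/6. The sources used here name no Cre driver and do not say whether libraries of a group came from separate animals, so the p-values may measure technical spread alone.

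Glycogen is a branched polymer of glucose from which cells draw glucose without taking up more. Glycogenin starts a chain on itself, glycogen synthase lengthens it from UDP-glucose, and the branching enzyme adds side branches. Glycogen phosphorylase shortens the chains and releases glucose 1-phosphate. In the brain most glycogen lies in astrocytes, while neurons hold little of it and keep their glycogen synthase largely inactive.

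The dopaminergic genes Th, Slc6a3, Slc18a2 and Ddc lay at or above the 98.7th percentile of their array in all 14 libraries. The median signal of an array was 6.41 to 6.47 log2 units for the younger mice and 7.36 to 7.43 for the older ones, so levels at different ages are set side by side only as percentiles within an array. A male pattern of sex-linked genes was seen in 0 of 4 Tfr1-null and 1 of 3 control libraries at 3 weeks, and in 3 of 3 Tfr1-null and 4 of 4 control libraries at 10 weeks. Age and sex pattern thus nearly coincided, so no comparison between ages here can be told apart from sex. The labels of 1 library at each age are in doubt. The probe set for the middle of the Tfrc transcript read 10.70 to 10.98 in the other 3 Tfr1-null libraries at 3 weeks, 8.80 to 8.86 in the controls and 8.82 in the library labelled Tfr1-null 3 weeks 1, whose source name says control. The 10-week values were 11.39 to 11.69 in Tfr1-null, 9.17 to 9.86 in the other 3 controls and 11.43 in the library labelled control 10 weeks 1. The probe set for the 5′ end ran the opposite way, lower in Tfr1-null, with 6.88 to 7.73 in those Tfr1-null libraries, 9.50 to 9.59 in the controls and 9.67 in the doubtful library at 3 weeks. For the older mice the 5′ values were 7.79 to 9.29 in Tfr1-null, 9.63 to 10.44 in the other controls and 8.55 in the doubtful library. The sources used here do not name the deleted part of Tfrc. Results are given for 12 libraries, without these, and for all 14 as labelled.

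The 250 bases before the transcription start are shown for the 4 members that passed the threshold at 10 weeks in the fit to 12 libraries. The sequences come from RefSeq on build GRCm38.p6, and all 7 members matched an entry. Each is printed 5′ to 3′ on the strand of the gene. Capitals mark ACGTG and GCGTG, on either strand, the core bound by hypoxia-inducible factors, and a match on the opposite strand reads CACGT or CACGC. The windows are chr12:70227684-70227933 (minus strand) for Pygl, chr2:150786546-150786795 (plus strand) for Pygb, chr7:45434589-45434838 (plus strand) for Gys1 and chr3:20155117-20155366 (minus strand) for Gyg.
Pygl: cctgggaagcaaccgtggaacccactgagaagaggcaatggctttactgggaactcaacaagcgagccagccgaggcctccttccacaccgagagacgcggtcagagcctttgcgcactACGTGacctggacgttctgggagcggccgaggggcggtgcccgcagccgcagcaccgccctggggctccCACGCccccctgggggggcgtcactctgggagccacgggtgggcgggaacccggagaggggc
Pygb: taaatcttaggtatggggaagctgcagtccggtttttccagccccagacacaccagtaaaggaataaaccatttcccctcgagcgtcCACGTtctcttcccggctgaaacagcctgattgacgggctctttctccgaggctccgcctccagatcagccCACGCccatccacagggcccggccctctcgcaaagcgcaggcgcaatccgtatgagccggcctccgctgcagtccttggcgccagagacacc
Gys1: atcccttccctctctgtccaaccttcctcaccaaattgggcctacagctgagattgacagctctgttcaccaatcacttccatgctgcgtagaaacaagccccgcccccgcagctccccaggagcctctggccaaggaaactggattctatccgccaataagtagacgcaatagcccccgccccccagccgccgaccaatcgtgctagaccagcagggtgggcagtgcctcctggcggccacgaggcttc
Gyg: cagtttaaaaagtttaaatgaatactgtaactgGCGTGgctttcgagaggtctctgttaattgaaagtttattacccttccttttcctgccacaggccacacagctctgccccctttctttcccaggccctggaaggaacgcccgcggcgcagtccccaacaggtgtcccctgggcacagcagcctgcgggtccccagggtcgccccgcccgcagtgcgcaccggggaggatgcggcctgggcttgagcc
Pygl held 1 ACGTG, which began 131 bases before the start, and 1 GCGTG on the opposite strand. Pygb likewise held 1 of each, both on the opposite strand. Gyg held 1 GCGTG and Gys1 held no match. Of all 7 members 5 held at least 1 match, the others being Pygm and Ppp1r3c, and Gbe1 held none. In Ppp1r3c, 2 of 3 ACGTG matches overlapped in 1 palindrome. Among 32851 RefSeq windows of the same length, 38.6% held at least 1 of these motifs, 16.6% ACGTG and 28.2% GCGTG. A match is not evidence of binding.

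In Tfr1-null neurons the phosphorylase genes Pygl and Pygb were lower and the synthase gene Gys1, by the brighter of its 2 probe sets, was higher. Pygl, the liver form of glycogen phosphorylase, stood 7.83-fold below control at 3 weeks and 3.55-fold below at 10 weeks in the 12-library fit. Gys1, the glycogen synthase of muscle and brain, stood 2.60-fold and 1.69-fold above control. Pygb and Gyg passed the threshold at 10 weeks only in that fit, both lower, and the difference between ages passed for none of the 7 members. With all 14 libraries as labelled, the 10-week difference of Gyg alone passed. Ribosome-bound mRNA from bulk tissue cannot tell fewer cells of a type apart from less of an RNA in each cell.

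**Figure D1:**
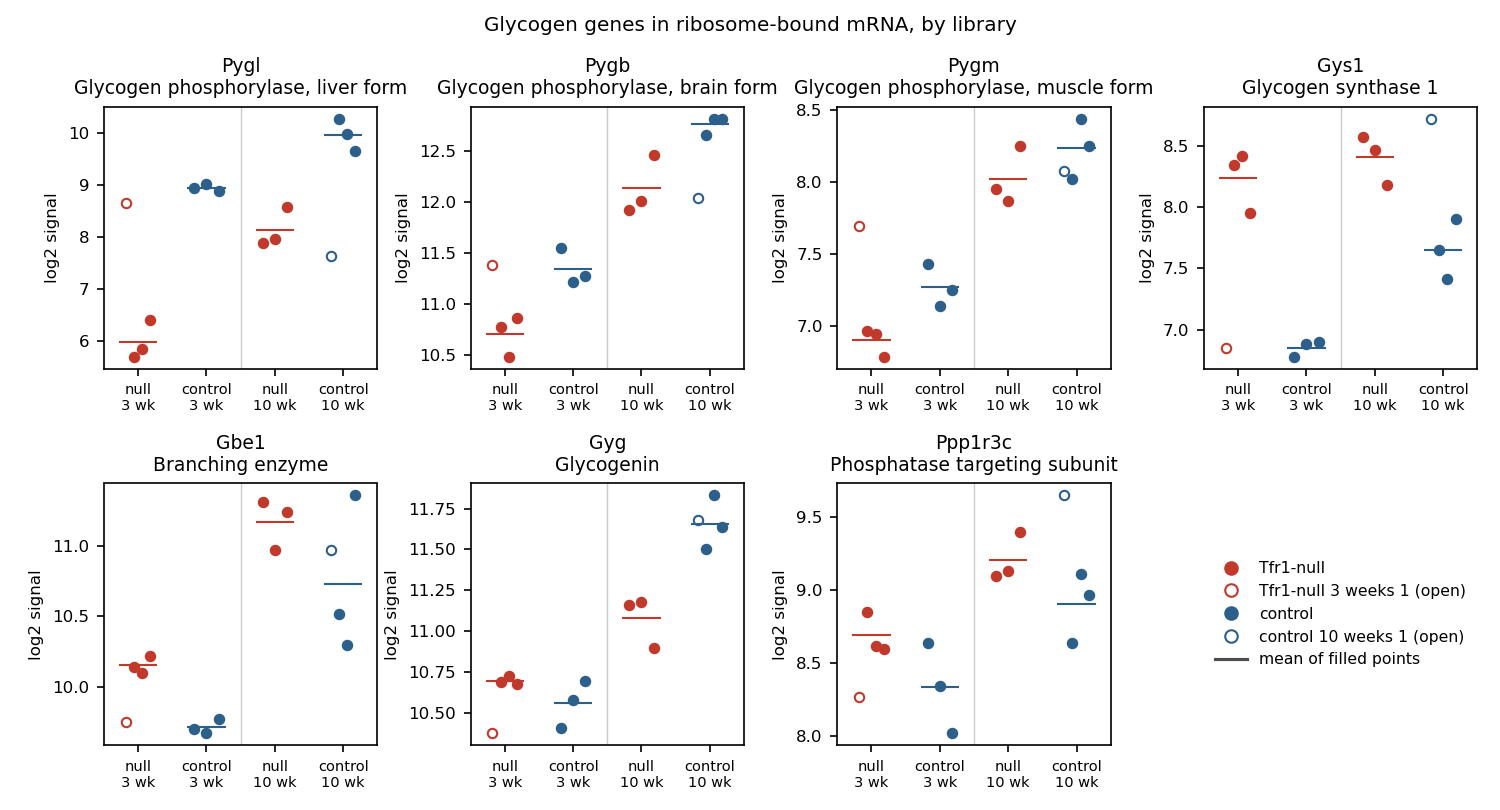
Log2 signal of the probe set that stands for each of the 7 genes, 1 point per library, with Tfr1-null left of control at each age. Filled points are the 12 libraries whose labels are not in doubt, open points the libraries labelled Tfr1-null 3 weeks 1 and control 10 weeks 1, and bars the means of the filled points. Pygl shows the widest gap, with means of 5.98 against 8.95 at 3 weeks and of 8.15 against 9.97 at 10 weeks.

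A gene was called where its p, adjusted by Benjamini-Hochberg over all 18193 genes in limma, was under 0.05. In the 12-library fit at 3 weeks 2 of 7 members were called, 1 higher and 1 lower, where 1.84% of all genes were called, 0.682% higher and 1.16% lower. At 10 weeks 4 of 7 were called, 1 higher and 3 lower, where 11.1% of all genes were called, 4.73% higher and 6.34% lower. The difference between ages was called for 0 of 7 members in limma and for 0.286% of all genes. An unadjusted p under 0.05 was reached there by 3 of 7 members and by 2220 of all genes. With 14 libraries limma called 0 of 7 at 3 weeks, 2 of them with an unadjusted p under 0.05, while 0% of all genes were called and 849 had an unadjusted p under 0.05. At 10 weeks with 14 libraries it called 1 of 7, where 1.21% of all genes were called. The difference between ages with 14 libraries was called for 0 of 7, 1 of them with an unadjusted p under 0.05, and for 0% of all genes, of which 1360 had an unadjusted p under 0.05. Since the members were chosen with these contrasts known, among them the 3-week value of Pygl, nothing is read from their shares.

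Within the 12 libraries the 2 genotypes did not overlap for 5 of 7 members at 3 weeks and 4 of 7 at 10 weeks, where 25% and 22.5% of all genes did not overlap. The median difference of the 7 members was 0.13 log2 units at 3 weeks and -0.21 at 10 weeks, beside 0.01 and -0.01 over all genes. The median size of the difference, whatever its sign, was 0.44 and 0.58 log2 units, beside 0.12 and 0.20 over all genes. Differences of the members lay on both sides of 0 at each age.

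Pygl encodes the phosphorylase first known from liver. At 3 weeks its probe set read 5.70, 5.85 and 6.41 log2 units in Tfr1-null libraries 2 to 4, against 8.95, 9.02 and 8.90 in the 3 controls. All 3 Tfr1-null values lay below all controls, with a gap of 2.49 log2 units between the groups. The fitted difference was -2.97 (SE 0.229, 95% confidence interval -3.48 to -2.46). No p is given for this value, since Pygl was chosen with it known. The p-values given for the members elsewhere come from contrasts that were also known when the members were chosen. The library labelled Tfr1-null 3 weeks 1 read 8.66, and with it the difference was -2.30 (SE 0.688), with the groups still apart.

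At 10 weeks Pygl read 7.88, 7.97 and 8.59 in the Tfr1-null libraries, against 10.28, 9.99 and 9.66 in control libraries 2 to 4. Again every Tfr1-null value was lower than every control, and the gap was 1.07 log2 units. The difference was -1.83 (SE 0.229, 95% confidence interval -2.33 to -1.32, adjusted p = 0.000834), and the exact two-sided permutation test gave 0.1, the smallest p that 3 against 3 allows. The library labelled control 10 weeks 1 read 7.64, below all 3 Tfr1-null libraries. With it the groups overlapped, and the difference was -1.24 (SE 0.688, adjusted p = 0.34). The fall of Pygl was smaller at 10 weeks by 1.14 log2 units (SE 0.324, 95% confidence interval 0.425 to 1.86), a difference between ages that did not pass (adjusted p = 0.196).

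Pygb encodes the brain form, known as the phosphorylase of neurons and also present in astrocytes. At 3 weeks it read 10.77, 10.48 and 10.86 in Tfr1-null libraries 2 to 4, against 11.54, 11.21 and 11.27 in the controls. In 10-week mice it read 11.92, 12.01 and 12.46 in the Tfr1-null libraries, against 12.65, 12.81 and 12.81 in control libraries 2 to 4. The genotypes stood apart at both ages, Tfr1-null below control, by gaps of 0.349 and 0.185 log2 units.

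The fitted Pygb differences were nearly equal, -0.64 (SE 0.159, adjusted p = 0.0851) at 3 weeks and -0.62 (SE 0.159, adjusted p = 0.0309) at 10 weeks. Only the 10-week value passed, and the difference between ages was 0.02 (95% confidence interval -0.481 to 0.512). The 10-week call was lost without Tfr1-null 10 weeks 1 (adjusted p = 0.0942), Tfr1-null 10 weeks 2 (0.0764), control 10 weeks 3 (0.0734) or control 10 weeks 4 (0.0664), and the adjusted p over all alternatives ran from 0.0103 to 0.307. The 3-week value passed without Tfr1-null 10 weeks 3 (adjusted p = 0.0356, range over all alternatives 0.0115 to 1). With 1 age fitted alone Pygb passed at 3 weeks (adjusted p = 0.0438) and not at 10 weeks (0.151). Array weights gave the same reversal (0.0115 and 0.163). The 10-week call was also lost without moderation (0.0569) and with the replicate block (0.224). The doubtful libraries read 11.38, amid the 3-week controls, and 12.03, amid the 10-week Tfr1-null libraries. With them the differences were -0.47 at 3 weeks and -0.44 at 10 weeks (SE 0.23 each), and neither passed (adjusted p = 1 and 0.307).

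Pygm encodes the muscle form. At 3 weeks it read 6.97, 6.95 and 6.79 in Tfr1-null libraries 2 to 4, against 7.43, 7.14 and 7.25 in the controls. These groups did not overlap, but the difference of -0.37 (SE 0.139) did not pass (adjusted p = 0.326). At 10 weeks its values ran from 7.87 to 8.25 in Tfr1-null and from 8.02 to 8.44 in control libraries 2 to 4, and the groups overlapped (difference -0.21, SE 0.139, adjusted p = 0.377). The fitted differences of all 3 phosphorylase genes were below 0 at both ages.

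**Figure D2:**
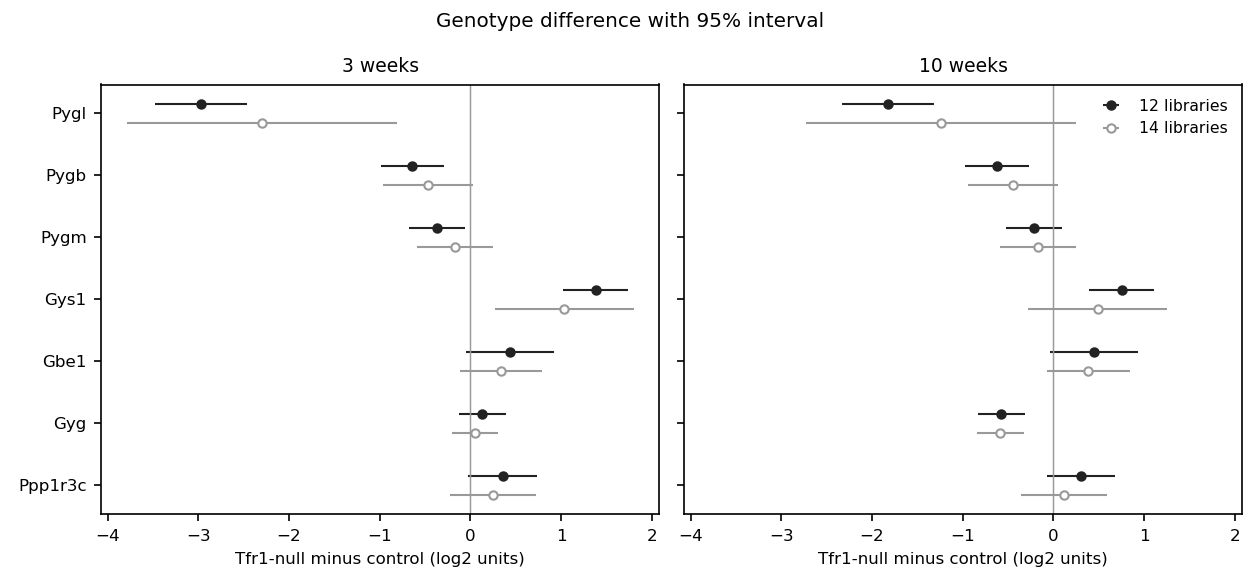
Fitted differences, Tfr1-null minus control, in log2 units with 95% confidence intervals for the 7 genes at 3 and at 10 weeks, from 12 libraries (filled) and from all 14 as labelled (open). Pygl lies farthest below 0 at both ages, at -2.97 and -1.83 with 12 libraries, and Gys1 farthest above it, at 1.38 and 0.75.

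Gys1 encodes the synthase that elongates the chain. Its brighter probe set, which stood for the gene, read 8.34, 8.42 and 7.95 at 3 weeks in Tfr1-null libraries 2 to 4, against 6.78, 6.88 and 6.90 in the controls. At 10 weeks it read 8.57, 8.47 and 8.18 in the Tfr1-null libraries, against 7.65, 7.41 and 7.90 in control libraries 2 to 4. At both ages the lowest Tfr1-null value lay above the highest control.

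The rise of Gys1 was 1.38 log2 units at 3 weeks (SE 0.162, 95% confidence interval 1.02 to 1.74, adjusted p = 0.00118) and 0.75 at 10 weeks (SE 0.162, 95% confidence interval 0.397 to 1.11, adjusted p = 0.0147). The difference between ages, -0.63 (SE 0.229), did not pass (adjusted p = 0.295). In the library labelled Tfr1-null 3 weeks 1 the signal was 6.85, beside a control mean of 6.86, and the library labelled control 10 weeks 1 read 8.72, above all 3 Tfr1-null libraries. With both included, the differences were 1.03 (SE 0.353, adjusted p = 1) and 0.49 (SE 0.353, adjusted p = 0.475).

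The other Gys1 probe set differed from the first. At 3 weeks it read 7.21, 6.78 and 7.12 in Tfr1-null libraries 2 to 4, against 6.44, 6.64 and 6.59 in the controls, apart but with a smaller difference of 0.48 (SE 0.396). The 10-week values were 8.37, 8.21 and 8.45 in Tfr1-null, against 9.15, 7.02 and 8.22 in control libraries 2 to 4. The control values there spanned the whole Tfr1-null range, and the difference was 0.21 (SE 0.396). In the fit over 34945 probe sets the first one passed at both ages (adjusted p = 0.00205 and 0.0181) and the other at neither (0.884 and 0.79). With the mean of both probe sets the rise was 0.93 at 3 weeks (adjusted p = 0.0728) and 0.48 at 10 weeks (adjusted p = 0.215), so the call for Gys1 rested on its brighter probe set. Its adjusted p over all alternatives ran from 5.23e-05 to 1 at 3 weeks and from 0.0103 to 0.475 at 10 weeks.

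Gbe1 encodes the branching enzyme. At 3 weeks it read 10.14, 10.10 and 10.22 in Tfr1-null libraries 2 to 4, against 9.70, 9.67 and 9.77 in the controls. The groups stood apart by a narrow spread on each side, yet the difference of 0.44 (SE 0.221) did not pass (adjusted p = 0.56), the spread of a gene being shared by all groups. The SD of Gbe1 was 0.061 in Tfr1-null and 0.0517 in control at 3 weeks, and 0.563 in control libraries 2 to 4 at 10 weeks. Its 3-week difference passed with 1 age fitted alone (adjusted p = 0.0174) and with array weights (0.0451). In 10-week mice it read 11.31, 10.97 and 11.24 in Tfr1-null, against 10.52, 10.30 and 11.36 in control libraries 2 to 4. Control 10 weeks 4 was the highest of these 6 values. With it the difference was 0.45 (SE 0.221, adjusted p = 0.231), and without it 0.77 (adjusted p = 0.00469, range over all alternatives 0.00469 to 0.551).

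Gyg encodes glycogenin, the primer of each glycogen particle. At 3 weeks its brighter probe set read 10.69, 10.73 and 10.68 in Tfr1-null libraries 2 to 4, against 10.41, 10.58 and 10.70 in the controls. The groups overlapped, and the difference was 0.13 (SE 0.118, adjusted p = 0.849). At 10 weeks it read 11.16, 11.18 and 10.90 in Tfr1-null libraries, against 11.50, 11.83 and 11.64 in control libraries 2 to 4. Here all Tfr1-null values lay below all controls, and Gyg fell by 0.58 log2 units (SE 0.118, 1.49-fold lower, adjusted p = 0.0115). This 12-library call was lost with 1 age fitted alone (adjusted p = 0.125), array weights (0.0593) and the replicate block (0.194). Over all alternatives the adjusted p ran from 0.00692 to 0.194.

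The difference of Gyg between ages, -0.71 (SE 0.166, 95% confidence interval -1.08 to -0.342), did not pass over all genes (adjusted p = 0.129). The other probe set of Gyg gave similar values, 0.15 (SE 0.149) at 3 weeks and -0.68 (SE 0.149) at 10 weeks. The 10-week values were 10.27, 10.75 and 10.43 in Tfr1-null libraries, against 10.96, 11.31 and 11.23 in control libraries 2 to 4, again without overlap. Both probe sets passed at 10 weeks in the fit over probe sets (adjusted p = 0.0146 and 0.0181).

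Gyg was the exception among the members in the library labelled control 10 weeks 1, which read 11.68, amid the other controls. With all 14 libraries its 10-week difference stayed at -0.58 (SE 0.119, adjusted p = 0.0418), and the exact permutation test gave 0.0286, the smallest p that 3 against 4 allows. That call was lost on leaving out any library but Tfr1-null 3 weeks 1, Tfr1-null 10 weeks 2 or control 10 weeks 1. The fit to 14 libraries takes the doubtful labels as given. In control 10 weeks 1 the probe set for the middle of Tfrc read 11.43, amid the Tfr1-null libraries. Were this library counted as Tfr1-null, the genotypes would overlap for Gyg at 10 weeks.

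Ppp1r3c encodes a subunit that carries protein phosphatase 1 to glycogen, where it activates the synthase and inactivates the phosphorylase. Its brighter probe set read 8.85, 8.62 and 8.60 at 3 weeks in Tfr1-null libraries 2 to 4, against 8.64, 8.34 and 8.02 in the controls. In 10-week mice it read 9.10, 9.13 and 9.40 in Tfr1-null, against 8.64, 9.11 and 8.97 in control libraries 2 to 4. The groups overlapped at both ages, with differences of 0.36 (SE 0.172, adjusted p = 0.528) and 0.30 (SE 0.172, adjusted p = 0.298). The dimmer probe set differed by 0.07 (SE 0.275) and 0.64 (SE 0.275), and did not pass either (adjusted p = 1 and 0.179).

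**Figure D3:**
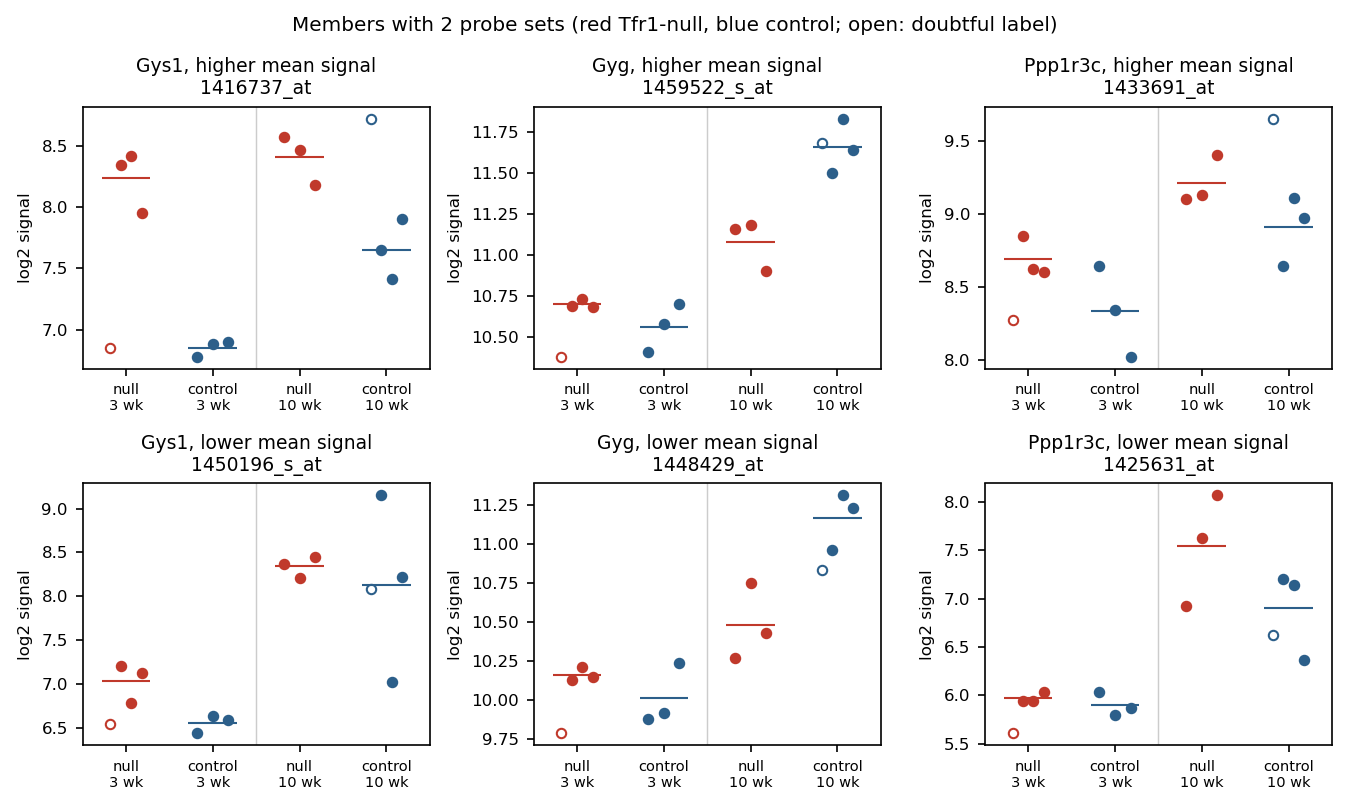
Both probe sets of Gys1, Gyg and Ppp1r3c, with 1 point per library and Tfr1-null left of control at each age, in log2 units. The probe sets of Gyg show the same order of groups at 10 weeks, while for Gys1 the dimmer one has control values from 7.02 to 9.15 at 10 weeks, around its Tfr1-null values.

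Over all 10 probe sets, limma called 2 at 3 weeks, where 1.08% of 34945 were called, and 5 at 10 weeks, where 9.33% were called. The 3-week calls were Pygl, which was chosen with that value known, and the brighter Gys1 probe set. The 10-week calls were these, Pygb and both probe sets of Gyg. No member probe set lay below the 25th percentile of its array in any library.

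Within each array, Pygl lay at a mean percentile of 45.4 ± 3.99 in Tfr1-null at 3 weeks, 73.9 ± 0.613 in control at 3 weeks, 57.7 ± 3.41 in Tfr1-null at 10 weeks and 76.3 ± 3.26 in control at 10 weeks (SD, n = 3 each). From the top its order was control at 10 weeks, control at 3 weeks, Tfr1-null at 10 weeks and Tfr1-null at 3 weeks, and only the controls of the 2 ages overlapped. Gys1 lay at 66.6 ± 2.59, 53.9 ± 0.488, 60.3 ± 2.37 and 52.8 ± 2.64 in the same 4 groups (SD, n = 3 each). Its order was Tfr1-null at 3 weeks, Tfr1-null at 10 weeks, control at 3 weeks and control at 10 weeks, and again only the controls overlapped.

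Pygb lay high in every group, at 89.7 ± 1.43 in Tfr1-null and 93.7 ± 0.93 in control at 3 weeks, and at 93.6 ± 1.45 in Tfr1-null and 96.3 ± 0.318 in control at 10 weeks (SD, n = 3 each). Tfr1-null at 10 weeks and control at 3 weeks overlapped, between the other groups. Gyg lay at 89.6 ± 0.24 in Tfr1-null and 88.7 ± 1.08 in control at 3 weeks, and at 86.5 ± 1.35 in Tfr1-null and 90.8 ± 1.02 in control at 10 weeks (SD, n = 3 each). Tfr1-null at 10 weeks was thus the lowest of the 4 groups for Gyg, as Tfr1-null at 3 weeks was for Pygl and Pygb.

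Seen over the 7 members, the library labelled Tfr1-null 3 weeks 1 was nearer the control mean than the mean of the other Tfr1-null libraries for 7 of 7. The library labelled control 10 weeks 1 was nearer the Tfr1-null mean for 6 of 7, all but Gyg. For Pygm and Gbe1 the margins there were small, with distances to the Tfr1-null and control means of 0.054 and 0.157, and of 0.199 and 0.247. The share over all genes was not computed, so nothing is read from these counts about the labels. Centred on the mean of its age, Pygl stood at -1.94, -1.79 and -1.23 in Tfr1-null libraries 2 to 4 at 3 weeks, where Gys1 stood at 0.89, 0.97 and 0.50. In the library labelled Tfr1-null 3 weeks 1 Pygl stood at 1.02 and Gys1 at -0.60, the side of the controls.

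**Figure D4:**
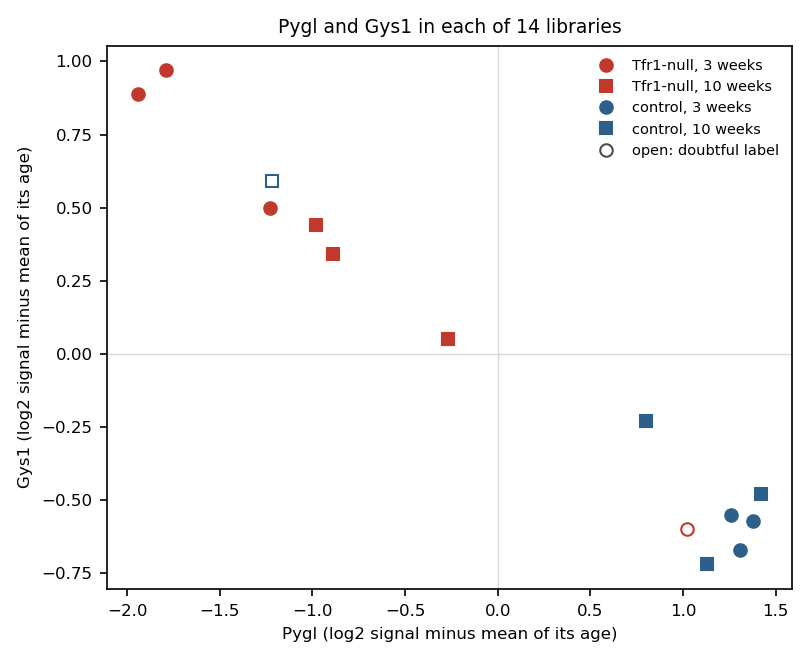
Log2 signal of Pygl (horizontal) and Gys1 (vertical) in 14 libraries, each centred on the mean of its age. Filled points are libraries whose labels are not in doubt. The 6 filled Tfr1-null points lie at low Pygl and high Gys1 and the 6 filled control points at high Pygl and low Gys1, and each open point lies among the points of the other genotype. The points share the arrays and the normalization, and no correlation is tested.

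Outside the 7 members, 28 other genes that build, break down or regulate glycogen were listed, and 27 were analysed here. In the 12-library fit 1 of 27 rose and 0 fell at 3 weeks, where 1.84% of all genes were called, and 2 rose and 2 fell at 10 weeks, where 11.1% of all genes were called. These shares are near those of all genes, so the genes named next are no result about glycogen genes as a group. The median differences of the 27 were -0.06 and 0.12 log2 units, beside 0.01 and -0.01 over all genes. With 14 libraries as labelled, limma called 0 of 27 at either age, with an unadjusted p under 0.05 for 2 at 3 weeks and 7 at 10 weeks. Of all 18193 genes, 849 at 3 weeks and 3612 at 10 weeks had such a p.

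Among 6 other genes for building, Pgm1 rose at both ages, and Gys2 fell at 10 weeks. Pgm1, phosphoglucomutase, converts glucose 6-phosphate and glucose 1-phosphate into one another, so it serves both directions. It read 11.33, 11.22 and 11.08 at 3 weeks in Tfr1-null libraries 2 to 4, against 10.43, 10.35 and 10.67 in the controls. At 10 weeks it read 12.21, 12.10 and 12.30 in Tfr1-null libraries, against 11.50, 11.24 and 11.49 in control libraries 2 to 4. The genotypes did not overlap at either age, and the rises were 0.73 (SE 0.12, adjusted p = 0.00874) and 0.79 (SE 0.12, adjusted p = 0.00251). Its other probe set showed differences of 0.04 and 0.05, so the probe sets of Pgm1 disagreed.

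Gys2, the synthase known from liver, read 7.03, 6.13 and 6.70 at 10 weeks in Tfr1-null libraries, against 7.30, 8.71 and 7.66 in control libraries 2 to 4. All Tfr1-null values were the lower ones, and the difference was -1.27 (SE 0.327, adjusted p = 0.0321). The signal was low, as the Tfr1-null values and control 10 weeks 2 lay below the median of an array, 7.36 to 7.43 at that age. Control libraries 2 to 4 had an SD of 0.73, with control 10 weeks 3 at 8.71. At 3 weeks the Gys2 difference of -0.43 (SE 0.327) did not pass (adjusted p = 0.798).

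Among the other breakdown genes 6 of 7 were analysed here, and 1 fell at 10 weeks. At 3 weeks limma called 0 of 6, 2 of them with an unadjusted p under 0.05, beside 1934 of all 18193 genes. Phkb encodes a regulatory subunit of phosphorylase kinase, which switches phosphorylase on. The 10-week values were 9.38, 9.50 and 9.82 in Tfr1-null libraries, against 10.07, 10.10 and 10.19 in control libraries 2 to 4, without overlap. Its difference was -0.55 (SE 0.126, adjusted p = 0.0187) at 10 weeks and -0.52 (SE 0.126, adjusted p = 0.0735) at 3 weeks, where it did not pass.

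Of 15 genes of control by phosphatase and kinase, 1 rose at 10 weeks. At 3 weeks limma called 0 of 15, 2 of them with an unadjusted p under 0.05, beside 1934 of all 18193 genes. Stbd1, a glycogen-binding protein linked to the transport of glycogen to lysosomes, read 9.56, 10.02 and 9.56 at 10 weeks in Tfr1-null libraries, against 9.15, 8.98 and 8.50 in control libraries 2 to 4. All Tfr1-null values were the higher ones, and the rise was 0.84 (SE 0.203, adjusted p = 0.0251). The 3-week difference was 0.37 (SE 0.203, adjusted p = 0.609).

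Of 10 genes that supply or use glucose 6-phosphate, 9 were analysed here, and 2 rose at both ages, Hk2 and Slc2a1. Over all genes 0.682% rose at 3 weeks and 4.73% at 10 weeks. Hk2, a hexokinase, makes glucose 6-phosphate, from which glycogen is built and to which its breakdown leads. It read 10.46, 9.27 and 10.21 at 3 weeks in Tfr1-null libraries 2 to 4, against 6.47, 6.23 and 6.24 in the controls. In 10-week mice it read 10.26, 11.23 and 10.79 in Tfr1-null, against 5.79, 6.59 and 6.10 in control libraries 2 to 4, and the rise was 4.60 log2 units (SE 0.324, adjusted p = 2.31e-05).

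Slc2a1 encodes the glucose transporter GLUT1. Its rise was 1.04 log2 units at 3 weeks (SE 0.0982, adjusted p = 0.000264), and at 10 weeks its rise was 1.03 (SE 0.0982, adjusted p = 0.000168). It read 12.20 to 12.37 in Tfr1-null libraries 2 to 4 and 11.12 to 11.30 in controls at 3 weeks, and 13.30 to 13.44 in Tfr1-null and 12.20 to 12.43 in control libraries 2 to 4 at 10 weeks. Its other 2 probe sets showed rises between 1.08 and 1.40. With 14 libraries neither Hk2 nor Slc2a1 passed.

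**Figure D5:**
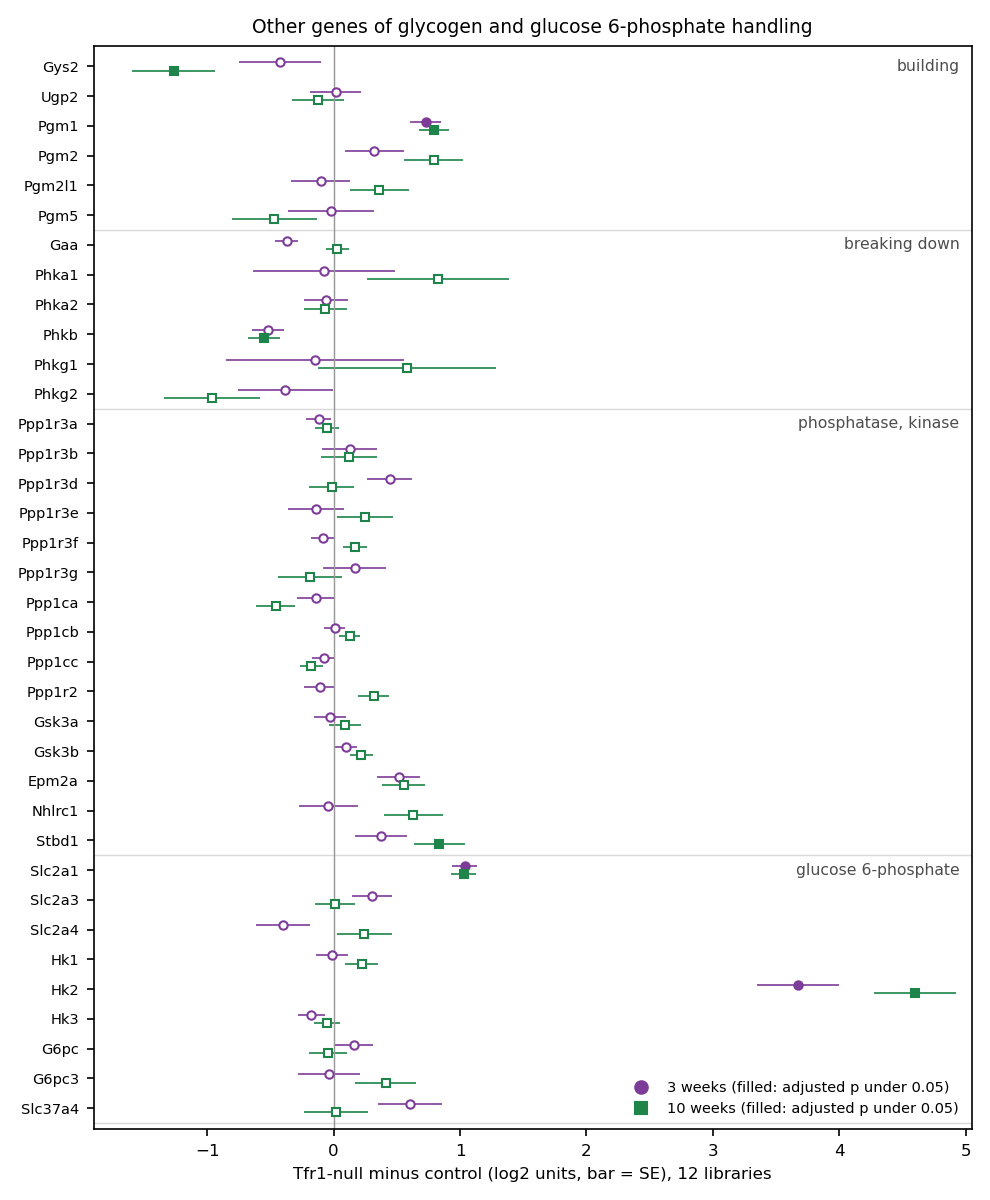
Fitted differences, Tfr1-null minus control, in log2 units with SE bars, from 12 libraries. Shown are the other glycogen genes and those of glucose 6-phosphate, whether called or not. Circles mark 3 weeks and squares 10 weeks, filled where the adjusted p was under 0.05. Hk2 shows the largest rise at both ages, at 3.67 and 4.60.

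The profiles of all genes above the median level were set beside those of the 4 members called at 10 weeks, over all 14 libraries, centred within each age, and without use of the labels. The measure was the root mean square of the log2 differences between both profiles, and the members' own profiles had values of 1.25 for Pygl, 0.357 for Pygb, 0.590 for Gys1 and 0.241 for Gyg. Nearest to Pygl were Stat6 (0.252), a transcription factor of interleukin signalling, Plin2 (0.371), a coat protein of lipid droplets, and As3mt (0.390), an arsenic methyltransferase. Nearest to Pygb were Atf7ip (0.110), Phkb (0.126) and 6330403K07Rik (0.151). Nearest to Gys1 were Mthfd2 (0.188), an enzyme of mitochondrial folate metabolism, Bnip3 (0.199), a mitophagy receptor, and Ppp1r15a (0.201), a regulatory subunit of protein phosphatase 1. Nearest to Gyg were Rab2b (0.0898), Mrgpre (0.0983) and Mrpl41 (0.102). Among 9095 or 9096 genes some will lie near any profile, and a likeness says nothing of shared control.

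Markers of other cells were read in the same libraries, because astrocytes hold most brain glycogen. The mean of 10 astrocyte markers ran from 9.12 to 9.39 log2 units in Tfr1-null and from 9.18 to 9.30 in control libraries at 3 weeks, and from 10.16 to 10.74 in Tfr1-null and from 10.05 to 10.56 in control libraries at 10 weeks, over the 12 libraries. The genotypes overlapped at both ages and limma called 0 of 10 astrocyte markers, 1 of them at each age with an unadjusted p under 0.05. Of all 18193 genes, 1934 at 3 weeks and 4801 at 10 weeks had such a p. Means of 7 oligodendrocyte markers ran from 10.13 to 10.43 in Tfr1-null and from 10.40 to 10.52 in control at 3 weeks, and from 10.54 to 11.24 in Tfr1-null and from 10.58 to 11.57 in control at 10 weeks. Means of 8 microglial markers ran from 6.74 to 7.05 in Tfr1-null and from 6.98 to 7.02 in control at 3 weeks, and from 7.80 to 8.20 in Tfr1-null and from 7.54 to 8.05 in control at 10 weeks. Both lists overlapped between genotypes at each age.

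Other marker lists did stand apart. The mean of 6 endothelial markers at 3 weeks ran from 6.14 to 6.23 in Tfr1-null and from 6.37 to 6.62 in control libraries. There limma called 0 of 6, 1 of them with an unadjusted p under 0.05, beside 1934 of all genes. At 10 weeks the genotypes overlapped for these endothelial markers. The mean of 10 dopaminergic markers at 3 weeks ran from 12.00 to 12.11 in Tfr1-null and from 12.21 to 12.22 in control libraries. At 10 weeks it ran from 12.58 to 12.88 in Tfr1-null and from 13.00 to 13.35 in control libraries. There 3 of 10 fell, Ddc by 0.32, Aldh1a1 by 0.28 and Drd2 by 0.85 log2 units, where 6.34% of all genes fell. An unadjusted p under 0.05 was reached by 8 of 10 in limma, beside 4801 of all 18193 genes. The lowest difference was that of Pitx3, -1.86 (SE 0.689), which did not pass (adjusted p = 0.111). With 14 libraries limma called 0 of 10 at 10 weeks, 6 of them with an unadjusted p under 0.05, beside 3612 of all genes. The marker means then overlapped, at 12.58 to 12.88 in Tfr1-null and 12.67 to 13.35 in control libraries. The 12-library falls ran the same way as those of Pygl, Pygb and Gyg. Of 3 markers of GABAergic neurons Slc32a1 rose by 0.70 log2 units at 10 weeks, and of 2 markers of glutamatergic neurons neither was called. None of the marker genes measured lay below the 25th percentile in every library of a group. The part of dopaminergic cell number or of RNA from other cells in the members' values was not tested.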

How the data were processed

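Arrays were hybridized from 50 ng of RNA per library, per the labels' protocols. The deposited values were log2 signals, which the authors made with robust multi-array averaging (RMA) in Partek 6.5, per the submitters' processing notes. They were used as deposited, with no raw scans. Of 45101 probe sets, 932 had several gene symbols and 9211 none in the platform annotation, and 13 control probe sets with a gene were left out. A gene was represented by its brightest probe set (mean of all arrays).

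limma 3.58.1 (lmFit and eBayes, R 4.3.3) was fitted to 4 groups over all genes, with Benjamini-Hochberg adjustment and a threshold of 0.05. The fit to 12 libraries had 8 residual and 2.8 prior degrees of freedom, that to 14 had 10 and 2.72. The median residual SD was 0.188 log2 units for 12 libraries, and the number of arrays limits the precision. The script was tested on simulated data. Depth does not apply to arrays, and the files carry no detection calls, so the 25th percentile of each array was the only mark of low signal.

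Members and gene lists, and the omission of the doubtful libraries, were chosen with earlier results of these data known. The text names all members. From each other list it names those called at either age in 12 libraries, at most 6, and for each called member the 3 genes of nearest profile. The markers Aldh1a1, Drd2, Pitx3 and Slc32a1 were named after their values were seen. Leave-one-out fits, a replicate block, array weights, a filter on dim genes, quantile normalization within each age, 1 age alone, the mean of probe sets and no moderation were the alternatives. Deviations of same-numbered libraries from their group means correlated little (from -0.0338 to 0.088 over 6 pairs), and numbers were not taken as pairs. Those group means included the doubtful libraries, which can hide a shared deviation, so the check cannot decide on pairing. Figures were drawn with matplotlib 3.10.9, and sequences read with pandas 2.3.3 and numpy 2.4.6, under Python 3.11.15.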

Additional observations from a re-analysis of the deposited data

Results flagged for a closer look

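Of 20 groups of 4 libraries tested, over 10 member probe sets, 1 held a library far from the others. In Tfr1-null at 3 weeks the brighter probe set of Gyg read 10.38 in the library labelled Tfr1-null 3 weeks 1 and between 10.68 and 10.73 in the other 3. The gap divided by the range was 0.857, above Dixon's 95% critical value for 4 samples, and chance alone marks about 1 group in 20. This is the library whose source name says control, and the 3 controls of that age read 10.41 to 10.70.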

How the results depend on the processing

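Of 276 recomputed differences of single members, 0 changed sign, 245 kept their side of the threshold, 24 no longer passed and 7 newly passed. In many of them the sign could not change, because the setting leaves the difference itself as it was. These are fits without a library of the other age, with 1 age alone, without moderation or above the median level. The mean of probe sets is another, for genes with 1 probe set. The number of members called moved more. Where the counts at 3 weeks include Pygl, it was chosen with that value known. With 12 libraries 2 were called at 3 weeks, against 0 with the replicate block, 4 with 1 age fitted alone, 1 with the mean of probe sets (Pygl), 1 among genes above the median level (Pygl, since Gys1 was not kept) and 5 with array weights, and from 2 to 3 on leaving out 1 library. At 10 weeks 4 were called, against 0 with the replicate block, 1 with 1 age alone (Pygl) and 1 with array weights (Pygl), and from 3 to 4 on leaving out 1 library. With 14 libraries 0 were called at 3 weeks, against 2 with array weights, and from 0 to 1 on leaving out 1 library, the 1 being Pygl without Tfr1-null 3 weeks 1. At 10 weeks 1 was called, against 0 with the replicate block, 1 age alone, the mean of probe sets, array weights or no moderation, and from 0 to 1 on leaving out 1 library. The difference between ages was called for 0 members in every setting. Beyond the settings' own construction, the cause was not tested.

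Over all genes the 335 calls of 12 libraries at 3 weeks became 0 with the replicate block, 918 with 1 age alone, 221 above the median level and 1360 with array weights, and from 205 to 412 on leaving out 1 library. The 2015 calls at 10 weeks became 20, 244 and 801 with the block, 1 age alone and array weights, and the 52 for the difference between ages became 0 with the block and 24 without moderation, and from 9 to 109 on leaving out 1 library. With 14 libraries the 0 calls at 3 weeks became 589 with array weights. The 220 at 10 weeks became 0 with the block, 1 age alone or array weights, 86 with the mean of probe sets, 408 above the median level and 7 without moderation, and ran from 5 to 1924 on leaving out 1 library. The replicate block left 2 residual degrees of freedom with 12 libraries and 4 with 14. In that paired fit Pygl differed by -3.18 at 3 weeks and -1.85 at 10 weeks (adjusted p = 0.0801 at 10 weeks), and Gys1 by 1.49 (0.0979) and 0.80 (0.0891). Of 12 libraries with a same-numbered partner, 5 correlated best with it. The number to be met without pairing was not computed, so this count does not decide on pairing.

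Each group held 3 or 4 arrays, so 1 library moved several calls, and no member lay below the 25th percentile of an array. Protein, enzyme activity and glycogen were not measured.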
